A study of Homo sapiens with 2 samples.

Results

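The 39 genes described here encode the enzymes of cholesterol synthesis and the proteins that take up, move, store, sense and export sterols. They were chosen by symbol from a list of 20 synthesis enzymes, 7 genes of uptake, transport and storage, 7 genes of the SREBP machinery and 5 genes of LXR signalling and efflux. All 39 were found among the 25240 genes of the deposited tables, with 65 transcripts that carried the status OK in both libraries, and 38 reached 1 FPKM, a fragment number scaled by transcript length and library size, in at least 1 library. The exception was NPC1L1, the sterol uptake protein of the intestine, which was listed at 0 in shRON and at 0.0149 FPKM in shNT. RNA was measured in T47D, a human luminal A breast cancer cell line. The shRON library came from cells that carry a hairpin against RON, a receptor tyrosine kinase encoded by MST1R, and the shNT library from cells that carry a non-targeting hairpin. Both lines were selected in 5 ug/mL puromycin, kept in 1 ug/mL and grown in high-glucose DMEM with 10% serum. The labels give neither the hairpin sequences nor whether the lines were pools or clones, and the name of the control table calls its cells wild type.

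Cholesterol is built from acetyl-CoA through mevalonate, isoprenyl diphosphates, squalene and lanosterol. The genes of this route are switched on together by SREBP transcription factors, which are released from the membrane by SCAP and a pair of Golgi proteases when cell sterol is low and are held in the endoplasmic reticulum by INSIG proteins when it is high. Oxysterols activate the LXR nuclear receptors, which drive sterol export through ABC transporters and APOE.

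MST1R stood at 9.10 FPKM in shRON and 12.1 FPKM in shNT, which is 25.1% lower in shRON, with an approximate 95% counting interval of the FPKM ratio from 0.675 to 0.832. The tables correspond to about 11500000 estimated fragments in shRON and 11900000 in shNT. All 12 luminal markers reached 1 FPKM, and they went both ways. ESR1, PGR, KRT8, KRT18, KRT19 and CDH1 were lower in shRON, and GATA3, FOXA1, XBP1, EPCAM, MUC1 and SPDEF were higher. ESR1 stood at 23.7 FPKM in shRON and 36.7 in shNT, and GATA3 at 269 and 223. Of the markers of other cells 1 of 7 basal, 2 of 6 fibroblast, 0 of 6 immune, 0 of 4 endothelial and 0 of 6 hepatocyte and adipocyte genes did. The measured ones were ACTA2, COL1A1 and COL3A1, and COL3A1 stood at 1.53 FPKM in shRON and 0.0103 in shNT. Summed over each list, the luminal markers had 7678 FPKM in shRON and 9807 in shNT, the basal markers 8.73 and 8.41, the fibroblast markers 5.86 and 4.14, the immune markers 1.01 and 0.465, the endothelial markers 0.0141 and 0.0137, and the hepatocyte and adipocyte markers 0.907 and 0.252. Their part in the results below was not tested. Each group is a single library, so nothing measures the spread between cultures, no test of the conditions was possible, and each difference below is one between these 2 libraries. In bulk RNA, fewer cells of a kind and less RNA per cell cannot be told apart.

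Synthesis enzymes were lower in the shRON library at nearly every step. Of the 20 enzymes, all measured, 19 had a log2 ratio of FPKM + 1 (shRON over shNT) below 0, against 46.1% of all 12481 measured genes, and 7 were at least 1.5-fold lower on that scale, against 8.85% of all measured genes. At 2-fold, 3 were lower, against 2.17% of all genes, and 0 were higher, against 3.33%. At 1.5-fold, 0 of the 20 were higher, against 9.95% of all genes. The median log2 ratio of the enzymes was -0.41, beside 0.04 over all measured genes. Summed over the 20 enzymes, the level was 915 FPKM in shRON and 1308 FPKM in shNT, a ratio of 0.700.

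**Figure D1:**
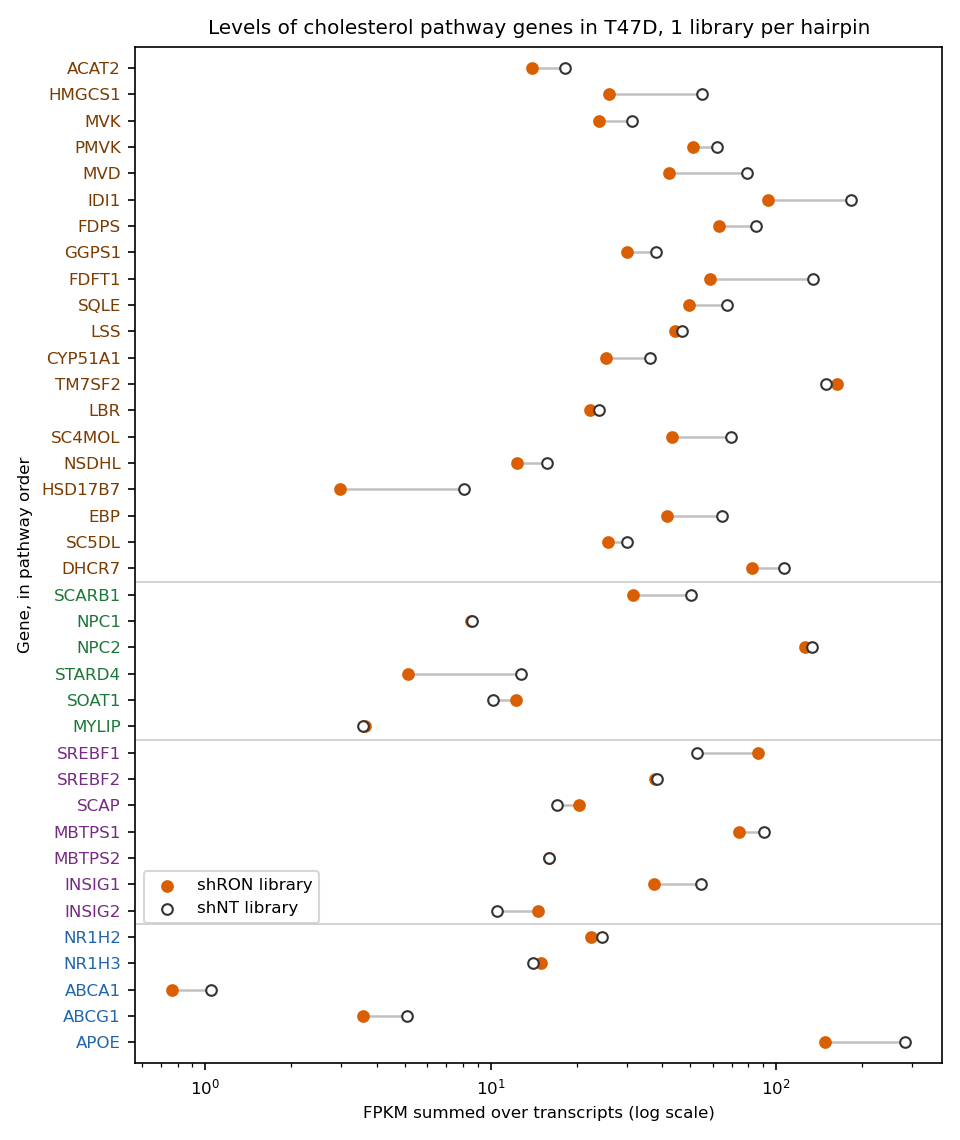
FPKM of the 38 measured members (log scale), summed over transcripts, in the shRON library (filled orange) and the shNT library (open), with genes in pathway order and the 4 groups separated by grey lines. The filled point lies to the left for 19 of the 20 enzymes, and to the right for TM7SF2, SOAT1, MYLIP, SREBF1, SCAP, INSIG2 and NR1H3.

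In the part of the route from acetyl-CoA to isoprenyl diphosphates, all 8 enzymes were below 0, against 46.1% of all measured genes. Of these 8, 3 were at least 1.5-fold lower, against 8.85% of all measured genes. HMGCS1, the synthase that makes HMG-CoA (chromosome 5, 43289493 to 43313595, hg19), stood at 25.9 FPKM in shRON and 55.2 in shNT. This is 53.0% lower in shRON, a log2 ratio of -1.06, and the FPKM ratio had a counting interval from 0.440 to 0.502. MVD, the decarboxylase that yields isopentenyl diphosphate (chromosome 16, 88718348 to 88729495), stood at 42.2 FPKM in shRON and 78.9 in shNT, a log2 ratio of -0.89 and a counting interval of the FPKM ratio from 0.496 to 0.576. IDI1, the isomerase of the next step (chromosome 10, 1085963 to 1095061), was the most abundant enzyme of the whole route in shNT, with 94.1 FPKM in shRON and 183 in shNT. Its log2 ratio was -0.95, and the FPKM ratio of 0.514 had a counting interval from 0.491 to 0.537. Exons of IDI1 share 643 bases with the antisense gene C10orf110, at 1.61 FPKM in shRON and 2.82 in shNT.

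The other 5 of these genes differed less. The thiolase gene ACAT2 stood at 14.01 FPKM in shRON and 18.2 in shNT, and its exons share 454 bases with TCP1, at 66.0 FPKM in both libraries, and 133 bases with SOD2, at 110.1 FPKM in shRON and 27.9 in shNT, both on the opposite strand. MVK, FDPS, GGPS1, CYP51A1, NPC1, NPC2, NR1H2 and NR1H3 also share exon bases with a gene on the opposite strand, and TM7SF2 and MBTPS2 with one on the same strand. The kinase gene MVK stood at 24.0 FPKM in shRON and 31.4 in shNT, and PMVK at 51.0 and 62.2. These 3 enzymes sit on either side of the HMGCS1 step, so the size of the difference did not follow the order of the reactions. FDPS, which makes farnesyl diphosphate, stood at 62.9 FPKM in shRON and 85.4 in shNT, with a log2 ratio of -0.43 and a counting interval of the FPKM ratio from 0.685 to 0.793. GGPS1, which draws farnesyl diphosphate off to geranylgeranyl diphosphate and so away from sterols, stood at 30.1 FPKM in shRON and 38.1 in shNT.

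The 3 enzymes that form squalene and lanosterol differed by unequal amounts, and the order of FDFT1 and SQLE turns once their chromosomal neighbours are subtracted (-0.68 for FDFT1, -0.89 for SQLE and -0.16 for LSS). FDFT1, the squalene synthase that commits the route to sterols (chromosome 8, 11660190 to 11696818), stood at 58.7 FPKM in shRON and 135 in shNT, 56.6% lower in shRON, with a log2 ratio of -1.19 and a counting interval of the FPKM ratio from 0.410 to 0.459. SQLE, the epoxidase after it, stood at 49.5 FPKM in shRON and 67.3 in shNT, a log2 ratio of -0.44. LSS, the cyclase that makes lanosterol, stood at 44.4 FPKM in shRON and 46.8 in shNT, and the counting interval of its FPKM ratio, 0.901 to 1.00, reached 1.

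From lanosterol to cholesterol, 8 of 9 enzymes were below 0, against 46.1% of all measured genes, and 3 were at least 1.5-fold lower, against 8.85%. HSD17B7, a ketoreductase of sterol demethylation (chromosome 1, 162760496 to 162782608), stood at 2.96 FPKM in shRON and 8.05 in shNT. It had the lowest log2 ratio among the members, -1.19, with 1.22% of all measured genes below it. It was also the least abundant enzyme, with an estimated 66 fragments in shRON and 186 in shNT, and its counting interval was wide, from 0.274 to 0.489. Its copy HSD17B7P2 is listed at 1.48 FPKM in shRON and 2.60 in shNT, so the division of reads between the 2 genes is uncertain.

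SC4MOL (now MSMO1), the oxidase of the same demethylation complex (chromosome 4, 166248818 to 166264225), stood at 43.2 FPKM in shRON and 69.7 in shNT, with a log2 ratio of -0.68 and a counting interval from 0.578 to 0.663. NSDHL, the dehydrogenase of that complex, stood at 12.4 FPKM in shRON and 15.7 in shNT. EBP, a sterol isomerase (chromosome X, 48380164 to 48387104), stood at 41.6 FPKM in shRON and 64.8 in shNT, a log2 ratio of -0.63 with a counting interval of the FPKM ratio from 0.582 to 0.706. Of the demethylation complex, HSD17B7, SC4MOL and NSDHL were thus all lower, by unequal amounts.

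CYP51A1, the lanosterol demethylase, stood at 25.5 FPKM in shRON and 36.0 in shNT, a log2 ratio of -0.48. DHCR7, the reductase of the last step, stood at 82.1 FPKM in shRON and 107 in shNT, a log2 ratio of -0.38 with a counting interval of the FPKM ratio from 0.732 to 0.804. SC5DL (now SC5D), a desaturase, stood at 25.7 FPKM in shRON and 30.1 in shNT. The reductases TM7SF2 and LBR, which act on the same double bond, stood apart from their neighbours on the route. TM7SF2 was the most abundant enzyme in shRON and the only one of the 20 above 0, at 163 FPKM in shRON and 150.2 in shNT, a log2 ratio of 0.12. LBR, which is also a protein of the nuclear envelope, stood at 22.2 FPKM in shRON and 24.0 in shNT.

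**Figure D2:**
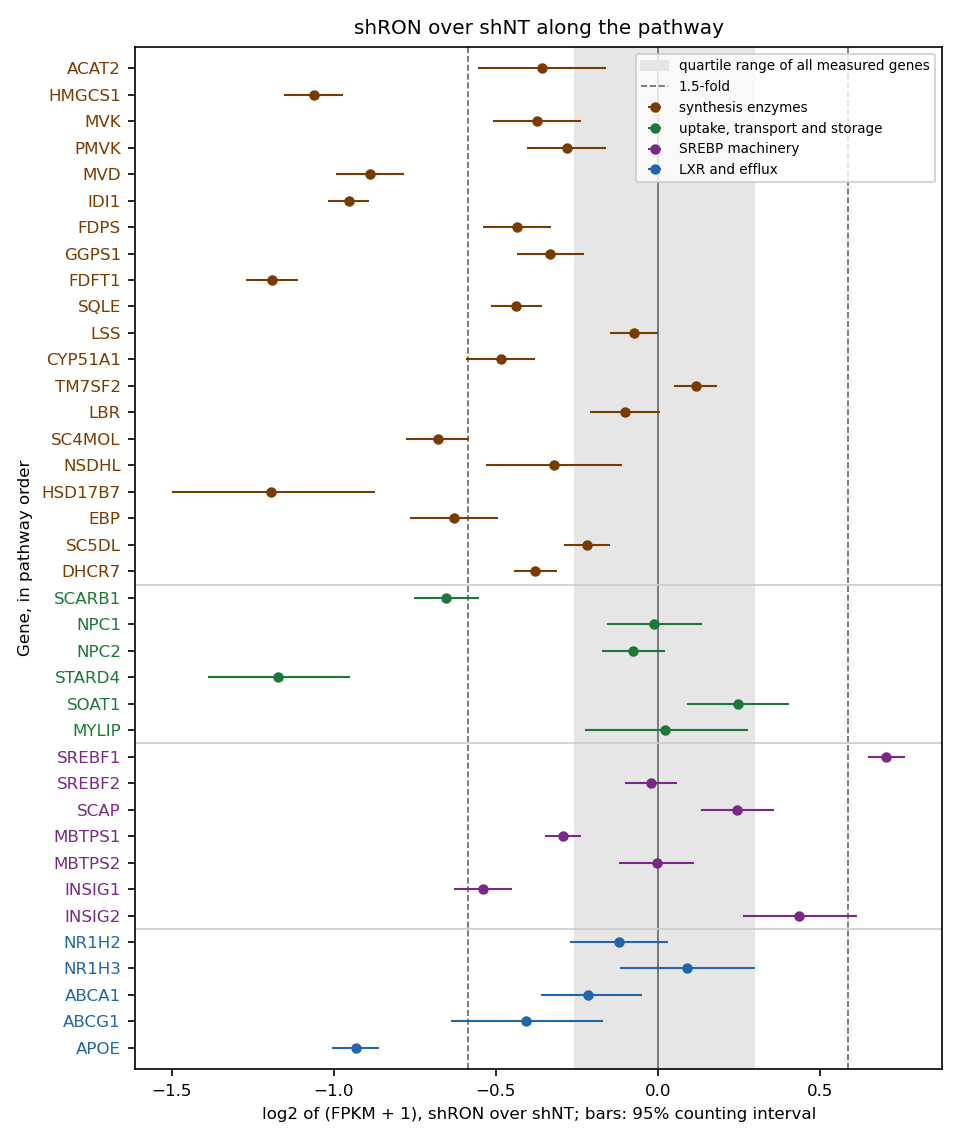
Log2 ratio of FPKM + 1, shRON over shNT, for the 38 measured members in pathway order, with approximate 95% counting intervals as bars, the quartiles of all measured genes (-0.25 and 0.30) as a grey band and 1.5-fold as dashed lines. The points of 7 enzymes, STARD4, SCARB1 and APOE lie left of the lower dashed line, and SREBF1 alone lies right of the upper one.

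Among the genes of uptake, transport and storage, 2 of 6 measured were at least 1.5-fold lower, against 8.85% of all measured genes, and 0 higher, against 9.95%, with a median log2 ratio of -0.04. STARD4, a cytosolic sterol carrier (chromosome 5, 110834022 to 110848157), stood at 5.12 FPKM in shRON and 12.8 in shNT, 59.9% lower in shRON, with a log2 ratio of -1.17 and a counting interval of the FPKM ratio from 0.334 to 0.479. SCARB1, the receptor that takes cholesteryl ester from HDL (chromosome 12, 125262174 to 125348519), stood at 31.6 FPKM in shRON and 50.3 in shNT, with a log2 ratio of -0.65 and a counting interval from 0.585 to 0.676. The genes of export from the lysosome were close to equal. NPC1 stood at 8.52 FPKM in shRON and 8.59 in shNT (counting interval of the ratio 0.885 to 1.11), and NPC2 at 126 and 133 FPKM (0.887 to 1.01). SOAT1, which esterifies cholesterol for storage, stood at 12.3 FPKM in shRON and 10.2 in shNT. MYLIP, a ubiquitin ligase that acts on lipoprotein receptors and an LXR target, stood at 3.63 FPKM in shRON and 3.56 in shNT.

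The genes of the SREBP machinery lay on both sides of 0. Of the 7, 1 was at least 1.5-fold higher, against 9.95% of all measured genes, and 0 lower, against 8.85%. Their median log2 ratio was -0.004. SREBF1 (chromosome 17, 17714663 to 17740325) stood at 86.6 FPKM in shRON and 52.7 in shNT, a log2 ratio of 0.70 with a counting interval of the FPKM ratio from 1.58 to 1.71, and was the only member at least 1.5-fold higher. Its exons share 556 bases with RAI1 on the opposite strand, which stood at 19.2 FPKM in shRON and 14.1 in shNT, and the sources used here do not state whether reads were assigned by strand. SREBF2, the SREBP gene most tied to cholesterol synthesis, stood at 37.8 FPKM in shRON and 38.4 in shNT, with a counting interval from 0.931 to 1.04.

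The INSIG genes went opposite ways in the 2 libraries. INSIG1, itself an SREBP target, stood at 37.4 FPKM in shRON and 54.8 in shNT (log2 ratio -0.54, counting interval of the FPKM ratio 0.640 to 0.727). INSIG2 stood at 14.6 FPKM in shRON and 10.5 in shNT (log2 ratio 0.44, counting interval 1.22 to 1.58). Neither reached 1.5-fold on the FPKM + 1 scale. The median log2 ratio of the 20 nearest measured neighbours was 0.12 for INSIG1 and 0.22 for INSIG2. Relative to these, INSIG1 stood at -0.66 and INSIG2 at 0.22. The escort gene SCAP stood at 20.4 FPKM in shRON and 17.1 in shNT, a log2 ratio of 0.25 beside 0.30 for its neighbours. The protease gene MBTPS1 stood at 73.9 FPKM in shRON and 90.8 in shNT, and MBTPS2, at the median of the group, at 16.0 FPKM in both libraries, with a counting interval of the ratio from 0.916 to 1.09.

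In the LXR and efflux group, 1 of 5 genes was at least 1.5-fold lower, against 8.85% of all measured genes, and 0 higher, against 9.95%. The median log2 ratio was -0.21. APOE, the apolipoprotein that accepts exported sterol (chromosome 19, 45409039 to 45412650), stood at 148 FPKM in shRON and 284 in shNT, with a log2 ratio of -0.93 and a counting interval of the FPKM ratio from 0.497 to 0.549. The LXR genes themselves were close to equal, with NR1H2 at 22.5 FPKM in shRON and 24.6 in shNT and NR1H3 at 15.1 and 14.1. The transporter genes were low in both libraries. ABCA1 stood at 0.766 FPKM in shRON and 1.05 in shNT, with a counting interval from 0.569 to 0.935, and ABCG1 at 3.59 and 5.08 FPKM.

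Position on the chromosome was compared next. For each gene, the median log2 ratio of its 20 nearest measured neighbours, 10 on each side, was taken as its regional median. FDFT1 lay among genes that were lower too (regional median -0.52), and its ratio relative to them was -0.68. HSD17B7, STARD4 and HMGCS1 had regional medians of -0.31, -0.29 and -0.16, and relative ratios of -0.88, -0.88 and -0.90. IDI1, APOE and SQLE lay among genes that were higher, with regional medians of 0.26, 0.24 and 0.46, and relative to these they stood at -1.21, -1.17 and -0.89. PMVK, GGPS1 and LBR, all on chromosome 1, had regional medians of -0.31, -0.30 and -0.33 and relative ratios of 0.03, -0.03 and 0.22. Relative to their regions, 10 of the 20 synthesis enzymes were at least 1.5-fold lower, against 6.58% of all measured genes, and 17 were below 0, against 50% of all genes. The median relative ratio of the enzymes was -0.58. SREBF1 stayed at least 1.5-fold higher, at 0.62.

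**Figure D3:**
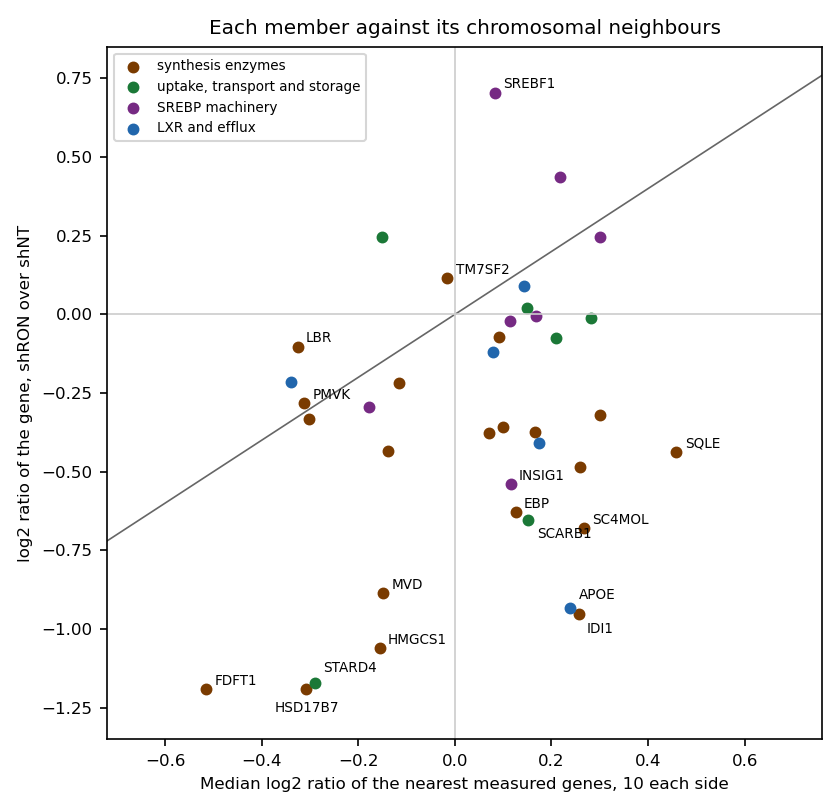
Log2 ratio of each measured member (vertical axis) against the median log2 ratio of its 20 nearest measured neighbours on the chromosome (horizontal axis), coloured by group, with the line of equality. Of the 20 synthesis enzymes, 17 lie below the line, also where their neighbours were higher, as for SQLE and IDI1, while PMVK, TM7SF2 and LBR lie above it.

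Promoter sequence was examined because 10 of the 38 measured members (26.3%) were at least 1.5-fold lower, against 8.85% of all measured genes. RefSeq windows on GRCh38.p14 were found for 34 of the 39 genes and not for ACAT2, FDFT1, SQLE, SCARB1 and ABCG1. In the 250 bases before each start, both strands were searched for a sterol response element pattern, TCACNCCAC, for the CCAAT box bound by NF-Y, and for the GC box GGGCGG bound by SP1. A CCAAT box was found for 14 of 17 synthesis enzymes (82.4%), against 32.0% of all 35116 windows and 42.4% of the 9421 measured genes with a window. Over the 34 members it was found for 23, or 67.6%. Among members with a log2 ratio above 0, TM7SF2, SOAT1, MYLIP and NR1H3 had a CCAAT box, and SREBF1, SCAP and INSIG2 had none. A GC box was found for 15 of 17 synthesis enzymes, or 88.2%, and for 29 of the 34 members, or 85.3%. The shares were 42.6% of all windows and 75.4% of measured genes. The sterol response pattern was found in SREBF2 alone, or 2.94% of the 34 members, against 0.883% of all windows and 1.19% of measured genes. It was thus found for 0 of the 17 synthesis enzymes. Genes with several starts have more windows and so more chances of a match. The stretches below are those of the 5 members with the lowest ratios that had a window with a CCAAT box, followed by that of SREBF2. They are written 5′ to 3′ on the strand of the gene, with CCAAT boxes, their reverse complements and the sterol response pattern in capitals.
HSD17B7, chr1:162790610-162790694, plus strand: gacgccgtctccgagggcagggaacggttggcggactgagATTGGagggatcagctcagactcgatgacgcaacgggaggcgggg
STARD4, chr5:111512621-111512736, minus strand: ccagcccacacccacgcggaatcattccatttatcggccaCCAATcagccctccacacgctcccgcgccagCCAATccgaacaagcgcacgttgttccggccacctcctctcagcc
HMGCS1, chr5:43313468-43313607, minus strand: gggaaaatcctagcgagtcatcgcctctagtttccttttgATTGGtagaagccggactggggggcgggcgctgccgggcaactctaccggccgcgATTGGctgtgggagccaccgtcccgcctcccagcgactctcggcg
IDI1, chr10:1048929-1049058, minus strand: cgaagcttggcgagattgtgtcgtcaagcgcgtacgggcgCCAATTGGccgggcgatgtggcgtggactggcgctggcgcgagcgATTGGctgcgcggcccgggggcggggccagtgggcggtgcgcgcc
APOE, chr19:44905729-44905795, plus strand: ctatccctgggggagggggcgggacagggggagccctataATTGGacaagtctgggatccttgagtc
SREBF2, chr22:41832932-41833043, plus strand: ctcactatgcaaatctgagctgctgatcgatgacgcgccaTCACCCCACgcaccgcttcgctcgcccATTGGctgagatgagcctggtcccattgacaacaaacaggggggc
STARD4 and HMGCS1 each hold 2 CCAAT boxes in these stretches, and IDI1 holds 3 matches, of which 2 overlap on opposite strands. A match describes the letters only, and binding was not measured. The search took an exact pattern in 250 bases, so a gene without a match cannot be said to lack a sterol response element.

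Genes next to the pathway were taken from 7 further lists with 99 genes, of which 86 were measured. Of these, 10 were at least 1.5-fold lower, against 8.85% of all measured genes, and 5 higher, against 9.95%, and their median log2 ratio was -0.04. The counts of the single lists, of 10 to 20 genes each, are given as values and are to be set against the same shares. The branch that makes dolichol, ubiquinone and prenyl groups from the same isoprenyl diphosphates had a median of -0.01, with 1 of 15 genes at least 1.5-fold lower and 0 higher. That gene was PGGT1B, a geranylgeranyl transferase subunit, at 7.47 FPKM in shRON and 12.0 in shNT. The COPII coat genes that carry SCAP and SREBP to the Golgi had 0 of 11 past 1.5-fold in either direction and a median of 0.06. Of 20 measured sterol carriers, only OSBPL7 passed, at 1.69 FPKM in shRON and 3.79 in shNT.

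Among 10 partners and electron donors of the sterol enzymes, 2 were lower and 2 higher. TMEM97, a sterol-binding protein of the endoplasmic reticulum, stood at 13.9 FPKM in shRON and 34.8 in shNT (log2 ratio -1.27, regional median -0.21). On the FPKM + 1 scale this was lower than any member, but the plain FPKM ratio was 0.399, beside 0.368 for HSD17B7. Relative to their regions, TMEM97 stood at -1.06, IDI1 at -1.21 and APOE at -1.17. CYB5B, a cytochrome b5, stood at 12.3 FPKM in shRON and 25.9 in shNT (log2 ratio -1.02, regional median -0.35). The cytochrome b5 gene CYB5A of the same list differed the other way, short of 1.5-fold. It stood at 103 FPKM in shRON and 81.1 in shNT (log2 ratio 0.34, regional median 0.19). POR, the reductase that feeds electrons to CYP51A1 and SQLE, stood at 65.3 FPKM in shRON and 37.5 in shNT (log2 ratio 0.79, regional median -0.30). PGRMC2 stood at 57.4 and 36.4 (log2 ratio 0.64, regional median 0.23). Relative to their regions, POR stood at 1.08 and PGRMC2 at 0.41, which is short of 1.5-fold. The donor POR and the enzymes it serves thus differed in opposite directions.

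Among the genes of sterol-regulated degradation in the endoplasmic reticulum, ERLIN1 stood at 10.3 FPKM in shRON and 16.4 in shNT, with a log2 ratio of -0.62 beside a regional median of -0.58. Of 10 measured lipoprotein receptor and lysosomal genes, LAMP1 was lower, at 152 FPKM in shRON and 242 in shNT (regional median -0.53), and CD36 higher, at 4.07 and 1.66. Of 10 measured oxysterol, LXR partner and transporter genes, CYP27A1, which makes an oxysterol, was higher, at 4.07 FPKM in shRON and 1.34 in shNT. ABCA7 was also higher, at 4.48 FPKM in shRON and 2.61 in shNT. The oxysterol sulfotransferase gene SULT2B1 was lower, at 10.3 FPKM in shRON and 19.4 in shNT, as were ABCA2 at 22.6 and 35.7 and LCAT at 1.16 and 2.57.

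**Figure D4:**
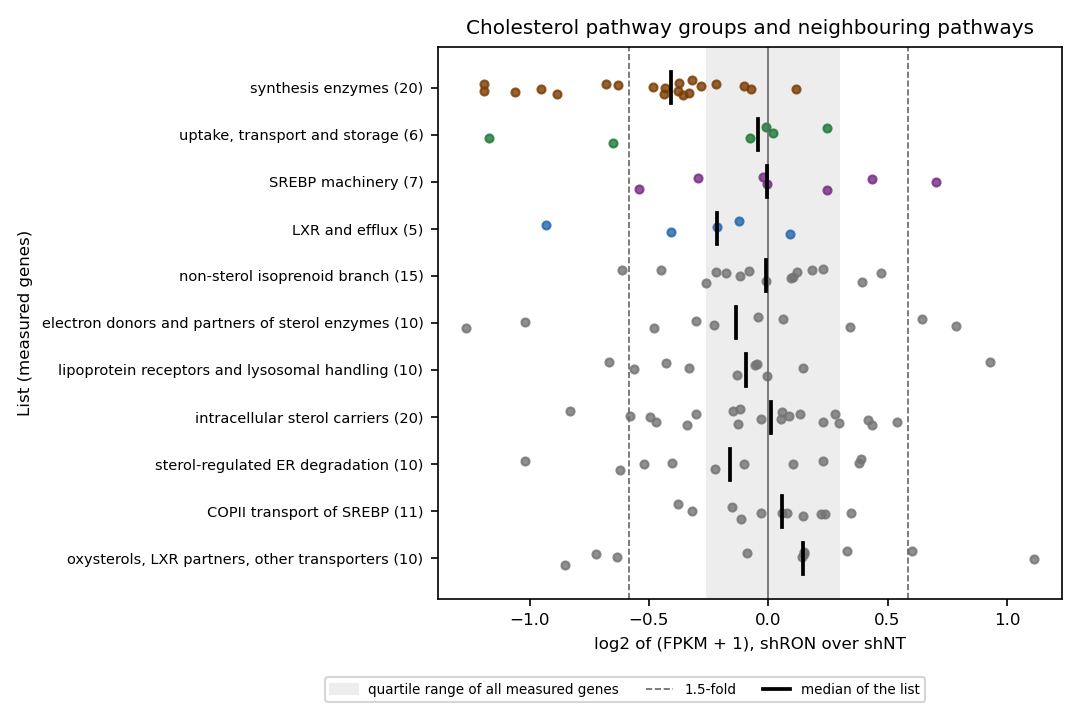
Log2 ratio of FPKM + 1, shRON over shNT, for the measured genes of the 4 member groups (coloured) and of the 7 neighbouring lists (grey), with list medians as black bars, the quartiles of all measured genes as a grey band and 1.5-fold as dashed lines. The median of the synthesis enzymes (-0.41) lies left of the grey band, and the medians of the 7 neighbouring lists lie inside it.

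Of the 39 members, 22 have 1 listed transcript and 17 have several, which Cufflinks divided between overlapping models. Both HMGCS1 transcripts were lower, NM_001098272.1 at 13.0 FPKM in shRON and 35.2 in shNT and NM_002130.6 at 13.0 and 20.0. CYP51A1 differed in 1 of its 2 transcripts, with NM_001146152.1 at 12.2 FPKM in shRON and 24.5 in shNT and NM_000786.3 at 13.3 and 11.6. FDPS was also mixed, with NM_001135822.1 at 50.6 FPKM in shRON and 67.6 in shNT, NM_001135821.1 at 6.12 and 16.1, and NM_002004.3 at 6.15 and 1.64. The higher level of SREBF1 came mostly from NM_001005291.2, at 66.3 FPKM in shRON and 36.4 in shNT, while NM_004176.4 stood at 20.2 and 16.3. That first transcript made up 76.6% of the gene's FPKM in shRON and 69.1% in shNT. INSIG1 was lower in its main transcript, NM_005542.4, at 31.4 FPKM in shRON and 48.5 in shNT, and close to equal in NM_198336.2, at 6.01 and 6.35.

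**Figure D5:**
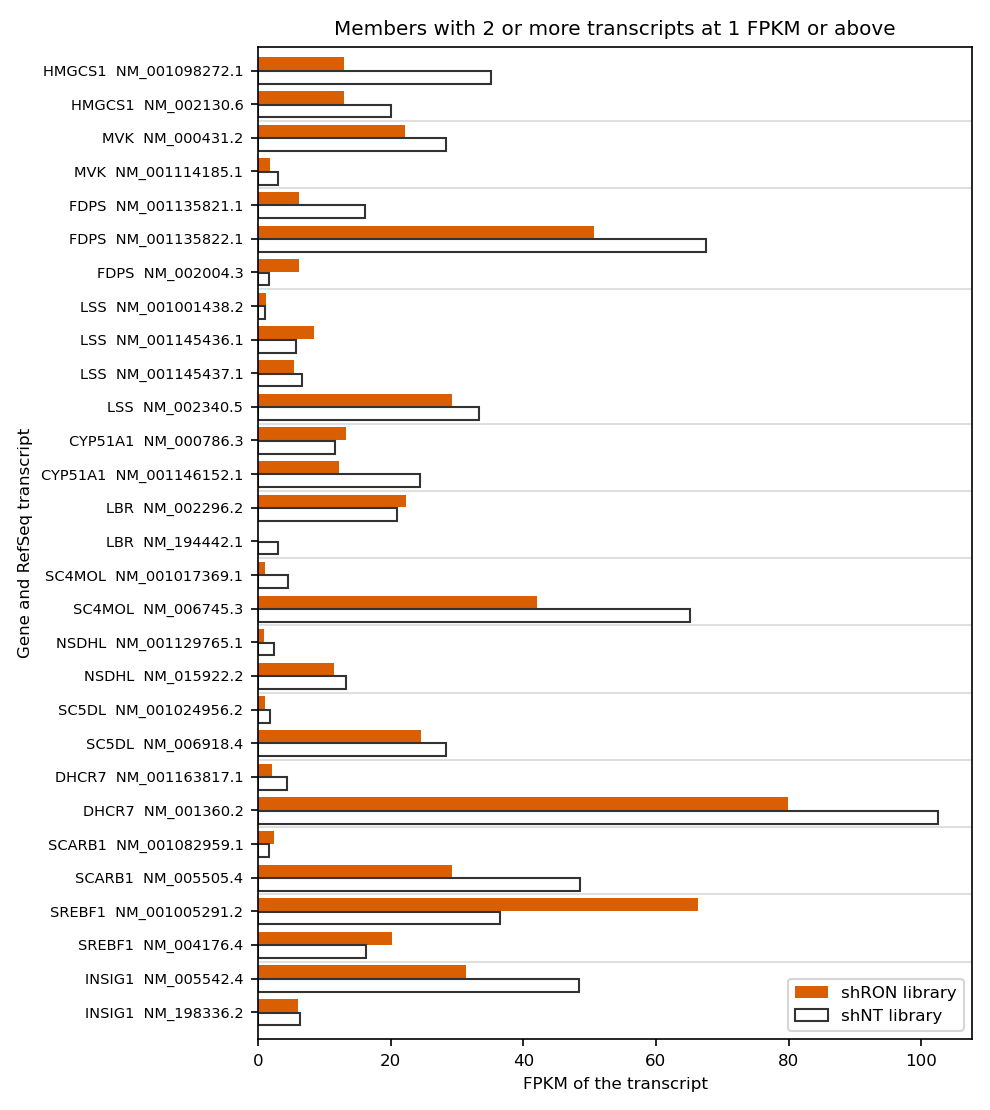
FPKM of each RefSeq transcript that reached 1 FPKM in at least 1 library, for members with 2 or more such transcripts, in the shRON library (orange bars, above) and the shNT library (open bars, below). Both HMGCS1 bars are shorter in shRON, 1 of the 2 CYP51A1 transcripts is, and both SREBF1 bars are longer.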

How the data were processed

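The authors deposited 1 Cufflinks transcript table per library, with FPKM and coverage, per the file headers, on build hg19, per the submitters' processing notes. Those notes also name DESeq without a role. No aligner, Cufflinks version or strand setting is named there. The deposited coverage signal was read as mean read depth and multiplied by transcript length. The result was divided by the bases of 1 read pair to estimate fragments. This divisor was itself inferred from the deposited values, as 241 bases in shRON and 244 in shNT. It was the median of the same product over selected long genes with 1 transcript, 276 in shRON and 280 in shNT. Only products within a preset range were used for it. Counting intervals are Clopper-Pearson at 95% on these estimates, are approximate, and cover counting error only.

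Deposited FPKM values were summed per gene, small RNA genes left out, and the 12481 genes that reached 1 FPKM in shRON, in shNT or in both kept. The log2 ratio uses a pseudocount of 1 and understates differences of low genes. File starts, which count from 0, were raised by 1. All members are named; of the other lists, genes past 1.5-fold are, except 1 that is not reported here. The members and lists were chosen with earlier results of these data known. The calculations were tested on simulated data. Exon overlaps came from GENCODE on GRCh37. Python 3.11.15, pandas 2.3.3 and scipy 1.17.1 were used.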

Additional observations from a re-analysis of the deposited data

How the results depend on the processing

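Over 9 alternative settings, all 11 members past 1.5-fold kept their direction, and 10 of them stayed past 1.5-fold in every setting. EBP was at -0.58 with a pseudocount of 5, just short of it. With regional medians subtracted, the median log2 ratio was -0.58 for synthesis enzymes, -0.29 for uptake, transport and storage, and -0.12 for the SREBP machinery. INSIG1 then counted as 1 lower gene of the SREBP machinery, as it did with only the most abundant transcript (1 gene). The LXR and efflux median was -0.41 with a pseudocount of 0.1 and -0.41 with the running median by level subtracted. An alternative chosen after seeing the data left out members with an overlapping or near-identical gene. The higher genes were then 0 of 24 members and 0 of the SREBP machinery, because SREBF1 was left out, against 9.95% of all measured genes. The lower genes were 8 of 24 members and 5 of 12 synthesis enzymes, against 8.85% of all measured genes. The medians were -0.32 for uptake, transport and storage and -0.41 for LXR and efflux. The share of all measured genes at least 1.5-fold lower ran from 3.73% with a pseudocount of 5 to 11.8% with a pseudocount of 0.1. With regional medians subtracted, 14 members and 10 synthesis enzymes were at least 1.5-fold lower, against 6.58% of all measured genes. With only the most abundant transcript, 12 members were, against 9.49%. These and the rest of 139 counts and medians lay within 1.5 times the reported count, or within the median half-width of the members' counting intervals. No paired analysis was possible because each group has 1 library. Depth limits HSD17B7, with 66 estimated fragments in shRON, most among the lower members. Of the genes named from the other lists, LCAT had fewer, 23 in shRON and 51 in shNT. The higher genes CYP27A1 and CD36 had 44 and 64 in shNT.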
